A study of Mus musculus with 11 samples.

Results

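Breadth of H3K4me3 at gene starts was set beside RNA in ureteric epithelium, the branching tube of the embryonic kidney that becomes the ureter and the collecting duct system. Each gene received the width of the widest H3K4me3 peak that touched 1 of its annotated starts, plus and minus 1 kb, and the FPKM of its transcripts summed. FPKM correct each count of fragments for transcript length and library size, so levels can be set side by side between genes. Of 34610 protein-coding and long noncoding genes with a position, 30809 had an RNA value and were used (21084 protein-coding, 9725 long noncoding). A start with a peak of 4 kb or wider is called broad, one with a peak under 1 kb narrow, and a gene under 1 FPKM silent.

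The series holds 11 mouse samples, each the only member of its group, so none of the differences given here has a replicate check. The ureteric H3K4me3 and H3K27me3 libraries came from Hoxb7-GFP+ ureteric epithelium sorted at E15.5 from Hoxb7myr-Venus/+ kidneys, in which a Hoxb7 promoter drives the reporter. The strain was of (C57BL/6J x CBA/J)F2 origin on a C57BL/6J background, and unfixed chromatin was cut with micrococcal nuclease. The ureteric RNA came from wild-type C57BL/6 ureteric epithelium dissected by hand at E11.5, so chromatin and RNA differ in age, genotype and isolation, and these cannot be told apart from a mismatch of mark and RNA. Used beside them were H3K4me3 in Cited1-RFP+ cap mesenchyme (nephron progenitors) of Cited1nuc-TagRFP-T mice at E18.5, H3K4me3 in E14 embryonic stem cells (129/Ola, passage 15), and RNA of wild-type C57BL/6 metanephric mesenchyme at E11.5, the tissue into which the bud grows.

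H3K4me3 is laid on promoters by the SET1 and MLL complexes and is recognised by factors of transcription initiation. Most active promoters carry a short block of it over an unmethylated CpG island, while genes that define a cell's identity often carry a block that runs far into the gene. H3K27me3, the mark of Polycomb repressive complexes, can lie on the same promoters, above all at developmental regulators.

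The 200 bases before the start of 5 genes are printed to show what kind of promoter stands behind each combination of width and RNA. CpG dinucleotides are in capitals, sequences read 5′ to 3′ on the gene's strand, and they are from RefSeq on GRCm38.p6, the build also called mm10. Gata3 and Emx2 were broad and high in RNA, Uncx was broad and silent, Aldh1a1 was high in RNA with a narrow peak, and Krt7 was high in RNA with no peak at its start.
Gata3 (chr2:9878601-9878800, minus strand): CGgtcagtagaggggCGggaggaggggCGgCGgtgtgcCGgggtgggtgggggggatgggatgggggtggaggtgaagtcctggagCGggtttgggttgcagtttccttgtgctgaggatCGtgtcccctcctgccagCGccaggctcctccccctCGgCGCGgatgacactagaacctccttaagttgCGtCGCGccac
Emx2 (chr19:59458490-59458689, plus strand): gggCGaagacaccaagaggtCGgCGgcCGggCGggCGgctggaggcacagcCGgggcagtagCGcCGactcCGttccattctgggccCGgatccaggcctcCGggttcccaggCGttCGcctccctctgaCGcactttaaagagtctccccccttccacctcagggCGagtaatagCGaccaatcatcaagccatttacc
Uncx (chr5:139543698-139543897, plus strand): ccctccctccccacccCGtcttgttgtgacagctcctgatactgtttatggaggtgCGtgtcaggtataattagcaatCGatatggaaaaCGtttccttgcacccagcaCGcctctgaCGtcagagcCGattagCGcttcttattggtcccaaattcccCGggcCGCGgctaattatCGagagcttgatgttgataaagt
Aldh1a1 (chr19:20601768-20601967, plus strand): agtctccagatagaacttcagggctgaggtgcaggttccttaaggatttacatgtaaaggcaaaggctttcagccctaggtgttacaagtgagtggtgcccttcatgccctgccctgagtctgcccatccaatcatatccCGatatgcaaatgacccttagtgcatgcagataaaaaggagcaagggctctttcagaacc
Krt7 (chr15:101412203-101412402, plus strand): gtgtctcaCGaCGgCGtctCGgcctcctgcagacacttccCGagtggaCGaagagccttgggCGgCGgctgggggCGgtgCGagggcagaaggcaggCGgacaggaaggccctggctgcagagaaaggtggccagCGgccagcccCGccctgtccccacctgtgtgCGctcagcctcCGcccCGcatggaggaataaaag
The Gata3 stretch holds 14 CpG, Emx2 17, Uncx 12 and Krt7 16, while Aldh1a1 holds 1. Over the 200-base windows of 16935 protein-coding genes (80.3% of those used), the median was 9 CpG, 41.6% held at least 12 and 18.6% held at most 1. The silent Uncx promoter and the Krt7 promoter without a peak were therefore both CpG-rich, and of the 5 only the Aldh1a1 promoter was CpG-poor. Over windows of 300 bases (250 before the start and 50 after), the median was 17 CpG (n = 3813) at peaks of 1 to 2 kb, 24 (n = 5864) at 2 to 4 kb and 24 (n = 809) at broad starts at 1 FPKM or more. A comparison with the starts without a peak, the narrow ones and the broad silent ones is void, because under 80% of those genes had a window.

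The RNA labels were checked against genes of known site. Of 35 epithelial genes measured, 32 reached 1 FPKM in ureteric RNA, with a sum of 1372 FPKM against 7.5 in metanephric mesenchyme. Of 22 nephron progenitor genes, 6 reached 1 FPKM (sum 109 against 453 in mesenchyme). Sums were 74.3 against 1286 for stromal and mesenchymal genes, 15.3 against 71.4 for endothelial and 17.45 against 145.6 for blood and immune ones. Collecting duct and urothelium genes summed to 39.1 against 7.3, neuronal and neural crest genes to 7.20 against 26.6. Ureteric H3K4me3 peaks stood at 33 of the 35 epithelial, 21 of the 22 nephron progenitor and 18 of 18 endothelial genes. Presence of a peak therefore did not check the chromatin label. The ureteric H3K4me3 list held 23958 peaks with a median width of 1547 bp, from 145 to 22543 bp, and 50.4% of all genes had one at a start. Read numbers behind the lists and the FPKM are not stated in the sources at hand, so depth is unknown. The 95% intervals below cover counting over genes only, and genes that share a peak are not independent.

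RNA stood higher at wider peaks, and most of the step lay between no peak and 2 kb. Of all genes, 35.1% were at 1 FPKM or more. That share was 2.35% (interval 2.12 to 2.61) of 15291 genes without a peak, 12.5% (10.2 to 15.1) of 736 narrow ones, 55.5% of 5475 genes at 1 to 2 kb and 78.6% of 7952 at 2 to 4 kb. Broad starts, which made up 4.40% of all genes (1355 genes behind 1012 peaks), did not go beyond this, with 78.4% (76.1 to 80.5) at 1 FPKM or more and a median of 8.72 FPKM. With the highest transcript of each gene in place of the sum that median was 5.59 FPKM, and with the upper 50% of the peak list by score 43.8% of narrow starts and 6.66% of starts without a peak were at 1 FPKM or more.

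Among protein-coding genes alone, where levels are easier to compare, the median FPKM went on climbing with width while the share with RNA did not. The median was 0 without a peak, 0.0789 at narrow peaks, 2.49 at 1 to 2 kb, 8.71 (8.41 to 9.01) at 2 to 4 kb, 11.52 (10.3 to 12.9) at 4 to 8 kb and 16.3 (9.51 to 21.9) at 8 kb or wider. The share at 1 FPKM or more was 63.4%, 85.9%, 87.0% and 83.8% (72.9 to 91.6) over the last 4 of these classes. The medians at 2 to 4 kb and 4 to 8 kb had intervals that do not meet, whereas those of the 2 broadest classes overlap. Very high levels of 100 FPKM or more were found at 0.443% of starts at 1 to 2 kb, 2.07% at 2 to 4 kb and 6.37% at 4 to 8 kb, but at 4.41% (3 of 68) at 8 kb or wider.

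**Figure D1:**
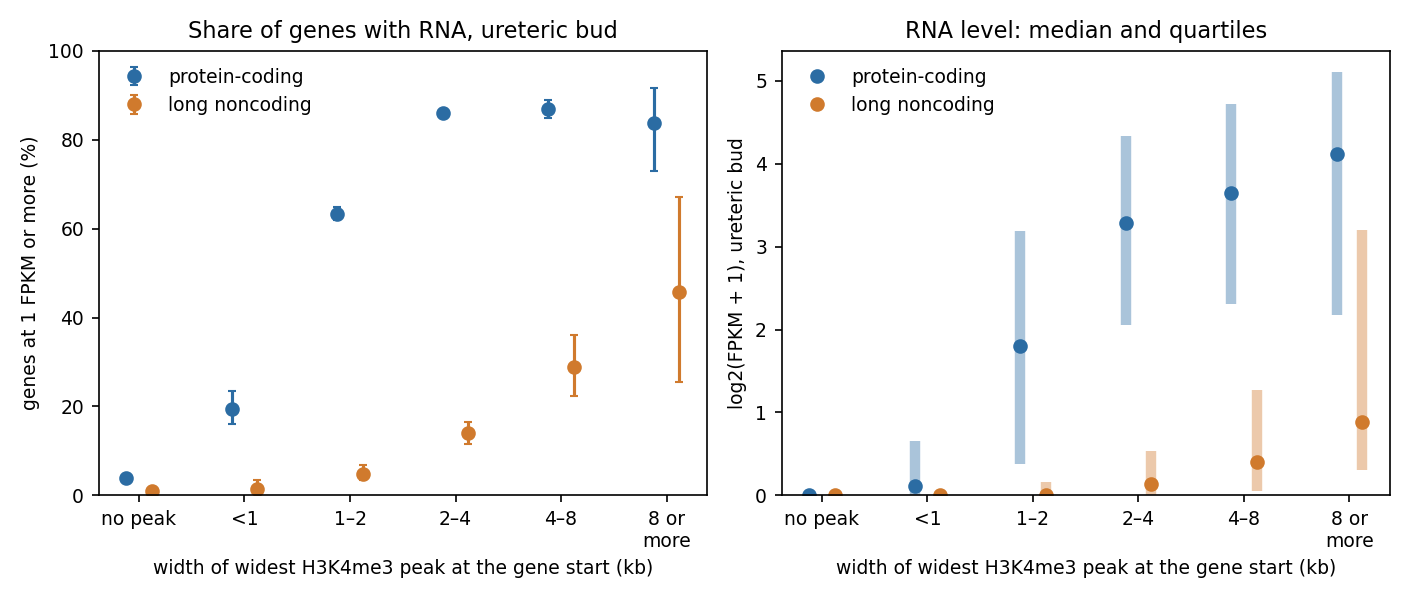
Ureteric bud RNA by width class of the ureteric H3K4me3 peak, for protein-coding (blue) and long noncoding (orange) genes. Left, the percentage of genes at 1 FPKM or more with 95% exact binomial intervals over genes; right, the median (point) and quartiles (bar) of log2(FPKM + 1). Protein-coding genes reach 85.9% at 2 to 4 kb and stay near it, while the long noncoding genes reach 45.8% in the widest class.

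Read from the side of RNA, broad peaks were more frequent at more abundant transcripts, although most broad genes were below 100 FPKM. Of 6254 protein-coding genes listed at 0 FPKM, 9.59% had a peak and 0.288% were broad. Genes at 1 to 10 FPKM had a peak in 96.0% of cases, with a median width of 2205 bp, and 6.74% were broad. At 10 to 100 FPKM the median width was 2610 bp and 11.7% were broad. Among the 243 protein-coding genes at 100 FPKM or more the median width was 3333 bp (3092 to 3534) and 29.6% (23.96 to 35.8) were broad, that is 72 of the 1151 broad protein-coding genes. Of the 68 at 8 kb or wider, 3 were at 100 FPKM or more, 38 at 10 to 100 and 11 under 1 FPKM.

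Across the 15518 genes with a peak, Spearman's correlation between width and ureteric FPKM was 0.403, and with metanephric mesenchyme FPKM, RNA of another tissue, it was 0.390. These points share 1 peak list and 1 RNA table. The coefficient was 0.295 over 10231 protein-coding genes at 1 FPKM or more, and 0.050 over the 1151 protein-coding broad genes. The authors' peak score, whose meaning the sources used here do not give, had a coefficient of 0.512 with FPKM and 0.670 with width. With the upper 50% of peaks by score, the coefficient between width and FPKM was 0.226.

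**Figure D2:**
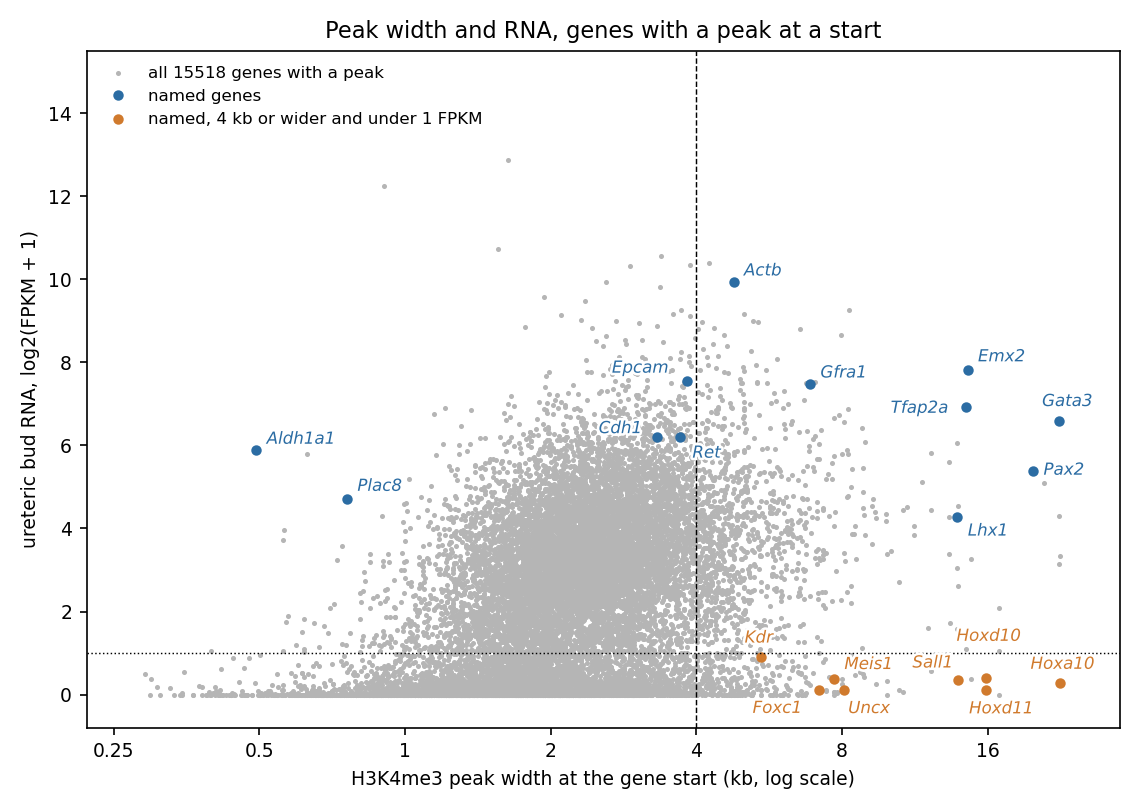
Each grey point is 1 of the 15518 genes with a ureteric H3K4me3 peak at a start, by peak width (log scale) and ureteric bud log2(FPKM + 1). The dashed line marks 4 kb and the dotted line 1 FPKM; named genes are blue, or orange where broad and silent. Gata3, Pax2, Emx2 and Tfap2a lie far right and high, Hoxa10, Hoxd10, Sall1 and Uncx far right and low, and Aldh1a1 and Plac8 far left and high.

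The widest peaks lay over homeobox clusters and a few regulators of the ureteric lineage. After a block of 22543 bp over Hoxa genes, the widest was one of 22440 bp (chr2:9868564-9891003) over Gata3, the zinc-finger factor needed for growth of the nephric duct and for Ret expression. Gata3 RNA stood at 95.7 FPKM in ureteric bud against 1.51 in metanephric mesenchyme, and its peak was 1764 bp wide in cap mesenchyme and 3603 bp in stem cells. It also covered the starts of the long noncoding genes 9230102O04Rik (18.7 FPKM) and 4930412O13Rik (7.77 FPKM). An H3K27me3 peak of 7118 bp covered 95.4% of the Gata3 start window in the same sorted population.

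Pax2, the paired-box factor required for the duct and the nephron, had a block of 19863 bp and 41.0 FPKM, and a block of nearly the same size, 20791 bp, in cap mesenchyme. Emx2, a homeobox gene without which the bud fails to branch, had 14540 bp and 225 FPKM, against 1.43 FPKM in mesenchyme and 2908 bp in cap mesenchyme. Tfap2a, an AP-2 factor, had 14417 bp and 121 FPKM, against 0.107 FPKM in mesenchyme and 1217 bp in cap mesenchyme. Pax2 was thus broad in both kidney populations, whereas Emx2 and Tfap2a were under 4 kb in cap mesenchyme. Bahcc1, a chromatin protein, had 14761 bp at 8.54 FPKM and was as wide in cap mesenchyme (17652 bp) and stem cells (13928 bp).

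Many of the 29 genes chosen as ureteric bud regulators had both breadth and RNA. This list, like the other gene lists, was chosen with earlier results of these data known, so its shares describe these members only. Of the 29, 16 were broad (55.2%), against 4.40% of all genes and 12.6% of protein-coding genes at 10 FPKM or more. All 16 stood at 10 FPKM or more, a combination found at 2.04% of all genes, and 7 were 8 kb or wider. Breadth at this list was not particular to ureteric cells. In cap mesenchyme 14 of the 29 were broad (5.65% of all genes), and in stem cells 17 (17.0% of all genes). Besides those above, Lhx1 (13856 bp, 18.4 FPKM) and Tfap2b (9282 bp, 25.1 FPKM) encode transcription factors of the duct. Gfra1, the co-receptor through which GDNF activates RET, had 6871 bp and 178 FPKM, and Wnt11, a tip ligand, had 6701 bp and 32.3 FPKM. Sox9 (6635 bp, 40.9 FPKM), Pax8 (5927 bp, 11.6 FPKM), Sox8 (4870 bp, 26.3 FPKM) and the basement membrane gene Fras1 (4358 bp, 24.2 FPKM) completed the upper part of the list.

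High RNA did not require breadth in that group. Ret itself, the receptor that drives branching, had 3700 bp and 72.8 FPKM, and is named here after its values were seen. In all, 12 of the 28 members with a peak were under 4 kb. Genes switched on downstream of RET and FGF signalling had a similar share, with 10 of 15 broad (66.7%) and 9 of those at 10 FPKM or more. Among them were the ETS factors Etv4 (5133 bp, 41.0 FPKM) and Etv5 (5258 bp, 30.8 FPKM) and the feedback inhibitors Dusp6 (7872 bp, 106 FPKM), Spry1 (7037 bp, 73.4 FPKM) and Spry2 (7115 bp, 20.4 FPKM). Also in this group were Spred1 (5072 bp, 37.7 FPKM), the chemokine receptor Cxcr4 (4973 bp, 28.8 FPKM), Myb (4328 bp, 34.9 FPKM) and the protease Mmp14 (5170 bp, 45.4 FPKM).

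Structural epithelial genes had high RNA, most of them on peaks under 4 kb. Their median was 24.9 FPKM, and the median width of the 33 with a peak was 2997 bp, with 8 of 35 broad (22.9%), against 5.46% of protein-coding genes and 12.6% of those at 10 FPKM or more. Those 5 that were broad and at 10 FPKM or more were the claudins Cldn6 (6689 bp, 136 FPKM), Cldn3 (4490 bp, 59.8 FPKM) and Cldn8 (4308 bp, 51.6 FPKM), the splicing factor Esrp1 (4733 bp, 90.6 FPKM) and the epithelial factor Grhl2 (4960 bp, 28.7 FPKM). Epcam (3825 bp, 186 FPKM) and Cdh1 (3319 bp, 72.2 FPKM), the adhesion molecules by which epithelium is usually recognised and both named after their values were seen, stayed under 4 kb. None of 22 collecting duct and urothelium genes was broad and 14 had no peak, at a median of 0.236 FPKM. Of all genes 49.6% had no peak, and at the 4.40% of all genes that were broad, few would stand in a list of that size.

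Ribosomal protein and respiratory chain genes had high RNA with shares of broad starts nearer that of all genes. Other general genes did not share this, with 7 of 17 housekeeping genes broad (41.2%) and 8 of 30 cell cycle genes (26.7%). All 78 cytosolic ribosomal protein genes measured had a peak, with a median width of 3002 bp and 7 broad (8.97%). Respiratory chain genes, at a median of 35.5 FPKM, had a peak in 75 of 77 cases with a median width of 2316 bp, and 3 were broad (3.896%, against 4.40% of all genes and 12.6% of protein-coding genes at 10 FPKM or more). The broad genes of highest RNA were Rack1 (1348 FPKM on 4251 bp), of which the most abundant transcript is only 267 bp long, Actb (981 FPKM on 4776 bp), Rpl13a (572 FPKM on 5008 bp) and Tubb5 (511 FPKM on 5231 bp). Chaperones followed, with Hspa8 at 499.6 FPKM on 5366 bp, Hsp90b1 at 499 on 4107 bp and Hspa5 at 446 on 4041 bp. Cbx5, Nedd4, Gnas, Eef2 and Cnbp lay between 345 and 454 FPKM on 4332 to 7971 bp. In cap mesenchyme Rpl13a had 3992 bp, and the others of these 12 genes were broad there too.

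**Figure D3:**
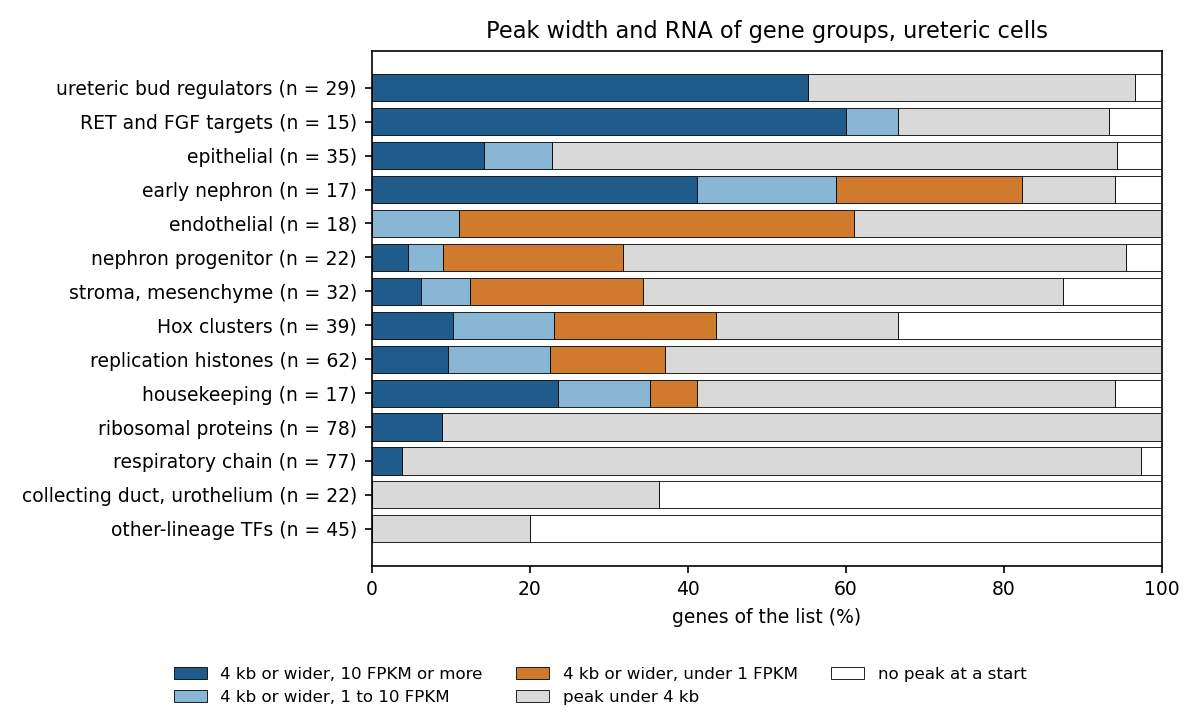
Share of each gene list (bars, in % of its measured genes, n beside each name) by state of the ureteric start: broad with 10 FPKM or more, 1 to 10 FPKM or under 1 FPKM, a peak under 4 kb, or no peak. Ureteric bud regulators have 16 of 29 genes in the first state, endothelial genes 9 of 18 in the broad and silent one.

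Broad but silent genes numbered 293 (152 protein-coding, 141 long noncoding), that is 21.6% of broad starts, against 64.9% of all genes under 1 FPKM. Of these, 54 were listed at 0. For 148 of the 293 (50.5%) the same peak also touched the start of another gene at 1 FPKM or more, so the block need not belong to the silent gene. Counted by peaks, 906 of the 1019 broad peaks at a start touched at least 1 gene at 1 FPKM or more (88.9%, 86.8 to 90.8) and 113 touched silent genes only. The number moves with the limit, with 731 genes at a 3 kb limit and 133 at 5 kb.

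Among starts with an H3K4me3 peak of 1 kb or wider, H3K27me3 was found more often at the silent ones. A ureteric H3K27me3 peak touched the start window of 10.8% of all genes. It touched 29.7% (24.5 to 35.3) of broad silent genes and 6.50% (5.09 to 8.15) of broad genes at 1 FPKM or more. The difference was not particular to breadth, since at peaks of 1 to 4 kb the shares were 30.1% and 4.23%. At narrow peaks they were 15.7% (13.0 to 18.7) of silent genes and 7.61% (3.11 to 15.05) of those at 1 FPKM or more. At starts without an H3K4me3 peak the shares were close, with 9.34% of silent genes and 9.72% of those at 1 FPKM or more, and with 50% of the window covered 3.56% and 5.83%. Among the 145 broad silent genes whose peak touched no start at 1 FPKM or more, 73 had H3K27me3 (50.3%, 41.9 to 58.8), and the other 72 had none there. Where at least 50% of the window had to be covered, which held for 4.38% of all genes, the protein-coding shares were 26.3% of broad silent and 2.00% of the other broad genes. Marks from sorted cells are averages, so both marks at a start need not lie in the same cell.

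**Figure D4:**
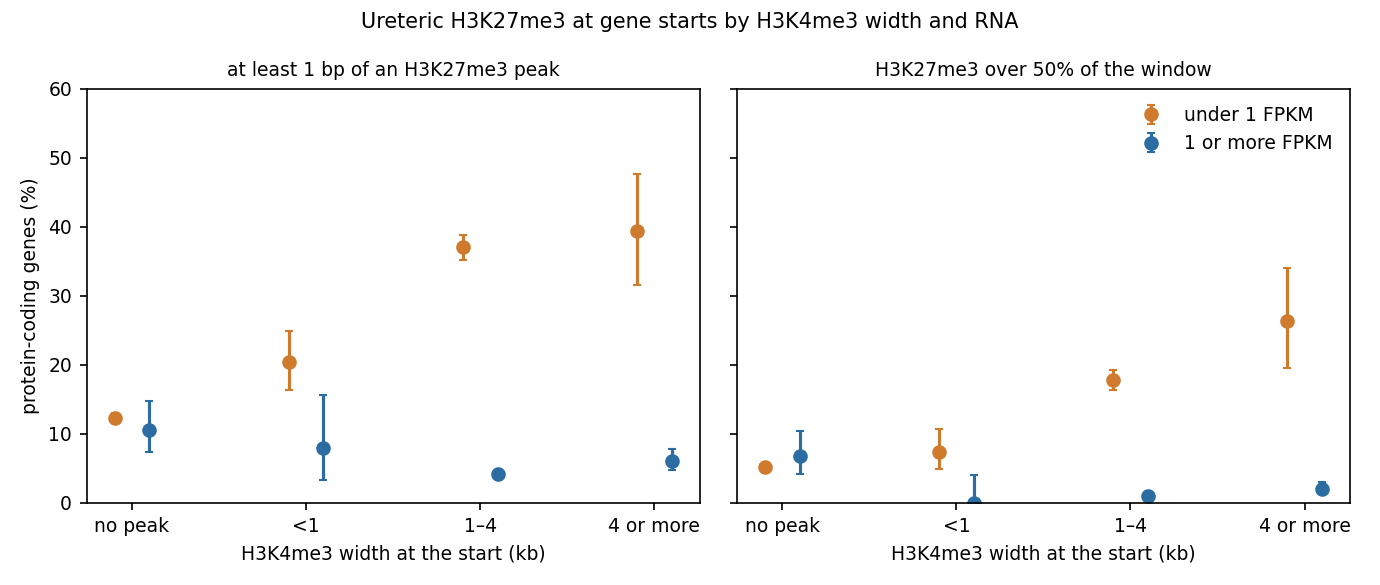
Percentage of protein-coding genes whose start window (plus and minus 1 kb) meets a ureteric H3K27me3 peak, by H3K4me3 width and by RNA (orange, under 1 FPKM; blue, 1 FPKM or more), with 95% exact binomial intervals over genes. Left, any overlap; right, at least 50% of the window covered. At broad starts the shares are 39.5% and 6.11% on the left and 26.3% and 2.00% on the right.

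Several of the widest silent blocks lay on genes that had RNA in the neighbouring mesenchyme. Sall1, a zinc-finger factor of nephron progenitors, had a ureteric block of 13913 bp with 0.276 FPKM in ureteric bud and 26.5 in mesenchyme. Its width was nearly the same in cap mesenchyme (13764 bp) and stem cells (14300 bp). Uncx, a homeobox gene of the progenitors, had 8080 bp and 0.0772 FPKM, with 29.3 FPKM in mesenchyme, a block of 18491 bp in cap mesenchyme and no ureteric H3K27me3 peak. Foxc1, a forkhead factor of kidney mesenchyme, had 7181 bp and 0.0802 FPKM, with 39.4 FPKM in mesenchyme and an H3K27me3 peak of 4613 bp. Nr2f1, an orphan nuclear receptor, had 7408 bp and 0.0807 FPKM, with 35.6 FPKM in mesenchyme. Of the 152 protein-coding broad silent genes, 20 (13.2%) were at 10 FPKM or more in mesenchyme. Among the other protein-coding genes silent in bud, that share was 1.57% (43 of 2745) at peaks of 1 to 4 kb. It was 1.65% at narrow peaks and 0.0822% without a peak. Of all protein-coding genes, which include those with RNA in bud, 16.8% were at that level (11.6% of all genes).

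Others of the widest silent genes had little RNA in either tissue. Irx5 had 7831 bp with 0.0308 FPKM in bud and 0.0998 in mesenchyme, under an H3K27me3 peak of 4514 bp over its whole window. The immediate-early gene Nr4a3 had 6732 bp with 0.0211 FPKM in bud and none listed in mesenchyme, and Sgk1, a kinase gene induced by steroids and stress, had 8734 bp with 0.463 and 1.38 FPKM. Pcdh17, a protocadherin gene, had 8867 bp with 0.333 and 1.26 FPKM. Some silent genes sat beside an active partner, as Rhof (0.0766 FPKM) did in the 10480 bp block of the H3K4 methyltransferase gene Setd1b (5.57 FPKM), and Gm38469 (0.380 FPKM) in that of Arid2 (15.6 FPKM). Ccr10, listed at 0, and Cntnap1 (0.00687 FPKM) shared a block of 6700 bp with Plekhh3 (0.574 FPKM).

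The nephron progenitor and stromal lists held several such genes. Of 22 nephron progenitor genes, 21 had a ureteric H3K4me3 peak, against 50.4% of all genes, and 7 were broad (31.8%, against 4.40%). Of the 7, 5 were silent: Hoxd11, Sall1, Uncx, Hoxa11 and Wt1 (4254 bp, 0.126 FPKM, with an H3K27me3 peak of 6851 bp). In cap mesenchyme 20 of the 22 were broad (5.65% of all genes), and the ureteric peak was the narrower one at 19 of 22. Of 32 stromal and mesenchymal genes, 11 were broad in ureteric epithelium (34.4%, against 4.40% of all genes). Of the 11, 7 were silent, among them Meis1 (7701 bp, 0.288 FPKM), Foxc2 (5564 bp, 0.206 FPKM), Zeb2 (5244 bp, 0.0377 FPKM) and Fat4 (5181 bp, 0.154 FPKM). The matrix gene Vcan, with 4897 bp and 0.886 FPKM against 89.0 FPKM in mesenchyme, was another. An H3K27me3 peak touched 23 of the 32, and 10 of the 22 nephron progenitor genes, against 10.8% of all genes. In a bulk sample, fewer cells of a type and less RNA per cell cannot be told apart.

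Endothelial genes showed the opposite contrast with cap mesenchyme. All 18 had a ureteric peak, against 50.4% of all genes, 11 were broad (61.1%, against 4.40%) and 9 of these were silent. In cap mesenchyme 10 had a peak and 1 was broad, near the 5.65% of all genes broad there. The ureteric peak was the wider one at 18 of 18. Pecam1, an adhesion molecule of vessels, had 6343 bp in ureteric epithelium, no peak in cap mesenchyme and 0.597 FPKM in bud RNA. Kdr, a VEGF receptor, had 5450 bp and 0.868 FPKM, and Tek, the angiopoietin receptor, had 5176 bp and 0.466 FPKM. Erg, Esam, Sox7, Flt1, Cldn5 and Cdh5 had 4005 to 5226 bp and 0.137 to 0.760 FPKM. The summed RNA of the list was 15.3 FPKM in ureteric bud and 71.4 in mesenchyme, with members from 0.0330 to 6.81 FPKM in bud and none at 0. Of 22 blood and immune genes, 3 had a ureteric peak and 1, Tal1 (5440 bp, 0.0884 FPKM), was broad. The part of endothelial cells in the sorted fraction was not tested.

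Genes of the early nephron were broad in ureteric epithelium in 14 of 17 cases (82.4%, against 4.40% of all genes). In 7 of these the RNA was at 10 FPKM or more, a combination found at 2.04% of all genes. Sim1 (13894 bp, 22.1 FPKM), Pou3f3 (13295 bp, 47.5 FPKM), Jag1, a NOTCH ligand (7095 bp, 23.8 FPKM), and Sox4 (6059 bp, 158 FPKM) were among these 7, together with Lhx1 and Pax8, which the ureteric list also holds. The 4 broad silent members were Dll1 (6808 bp, 0.207 FPKM), Irx2 (6597 bp, 0.401 FPKM), Bmp2 (5963 bp, listed at 0) and Fgf8 (4267 bp, 0.136 FPKM). In cap mesenchyme 6 of the 17 were broad (5.65% of all genes), and in stem cells 8 (17.0% of all genes).

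The other lists differed in how many members were broad, against 4.40% of all genes. None of 45 transcription factor genes of other lineages was broad, though at 4.40% few would be in a list of 45. Of the 45, 36 had no peak, against 49.6% of all genes, and 43 had H3K27me3 at a start, against 10.8%. No member of the 16 neuronal and neural crest genes, the 15 tubule transport genes or the 19 germ cell genes was broad, but at 4.40% fewer than 1 broad gene would stand in a list of that size. Of olfactory receptor genes, 3 of 1098 had a peak. Among 13 podocyte genes 4 were broad (30.8%), of which 3, Foxc2 and Wt1 among them, were silent. Among 21 pluripotency genes 4 were broad (19.1%), of which Tbx3 (12248 bp, 55.5 FPKM) was at 10 FPKM or more and Klf2 (4322 bp, 0.188 FPKM) silent. Of 62 replication-dependent histone genes, whose RNA lacks a poly(A) tail, all had a peak, 23 were broad (37.1%) and 9 of those silent. Histone genes are near-identical copies and clustered, so their FPKM and the owner of a peak are uncertain. Of 30 cell cycle genes 8 were broad (26.7%), of 17 housekeeping genes 7 (41.2%), and of 23 genes that write or erase H3K4 and Polycomb methylation 5 (21.7%), with Jarid2 (6135 bp, 26.1 FPKM) and Kdm6b (7729 bp, 20.1 FPKM) at 10 FPKM or more.

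Hox genes, which encode position along the body axis, ranged from wide silent blocks to high RNA without a peak. Of 39, 17 were broad (43.6%), of which 8 were silent and 4 at 10 FPKM or more. One block of 22543 bp touched Hoxa7 (9.09 FPKM), Hoxa9 (0.168 FPKM) and Hoxa10 (0.206 FPKM), and the next, of 16879 bp, touched Hoxa3, Hoxa5 and Hoxa6 (1.07 to 3.21 FPKM). In mesenchyme RNA these 6 genes stood at 11.7 to 28.6 FPKM, within 1 cap mesenchyme block of 48242 bp. Hoxd10 and Hoxd11 (0.312 and 0.0718 FPKM) shared a block of 15854 bp with an H3K27me3 peak of 5489 bp, and Hoxa11 (0.0550 FPKM) had one of 8001 bp. Hoxd4 had 20930 bp and 33.3 FPKM and no peak in cap mesenchyme, with 24.6 FPKM in mesenchyme RNA. The other broad members at 10 FPKM or more were Hoxd8 (7477 bp, 38.4 FPKM), Hoxd9 (6268 bp, 14.9 FPKM) and Hoxb2 (4805 bp, 14.7 FPKM).

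The Hoxb cluster was the reverse case, with high RNA and no peak at most starts. From Hoxb3 to Hoxb9, 7 genes stood at 13.1 to 75.8 FPKM without a ureteric H3K4me3 peak at their starts, although Hoxb3 had one of 8702 bp elsewhere in the gene. The highest were Hoxb7 (75.8 FPKM), Hoxb8 (69.2 FPKM) and Hoxb6 (62.0 FPKM). No ureteric H3K4me3 peak lay in the 71.2 kb from 96267004 to 96338177 on chromosome 11, and no ureteric H3K27me3 peak either. Cap mesenchyme likewise had no H3K27me3 peak there, while in stem cells H3K27me3 peaks covered 97.9% of it. In cap mesenchyme 91.2% of the same stretch was covered by H3K4me3 peaks, with a widest block of 45460 bp, and in stem cells 47.3%. The authors' peak numbers run on without a gap across it, so no row of the list is lacking there. The sorted ureteric cells carry a reporter under a Hoxb7 promoter. Whether the stretch could be called in the ureteric libraries was not tested.

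**Figure D5:**
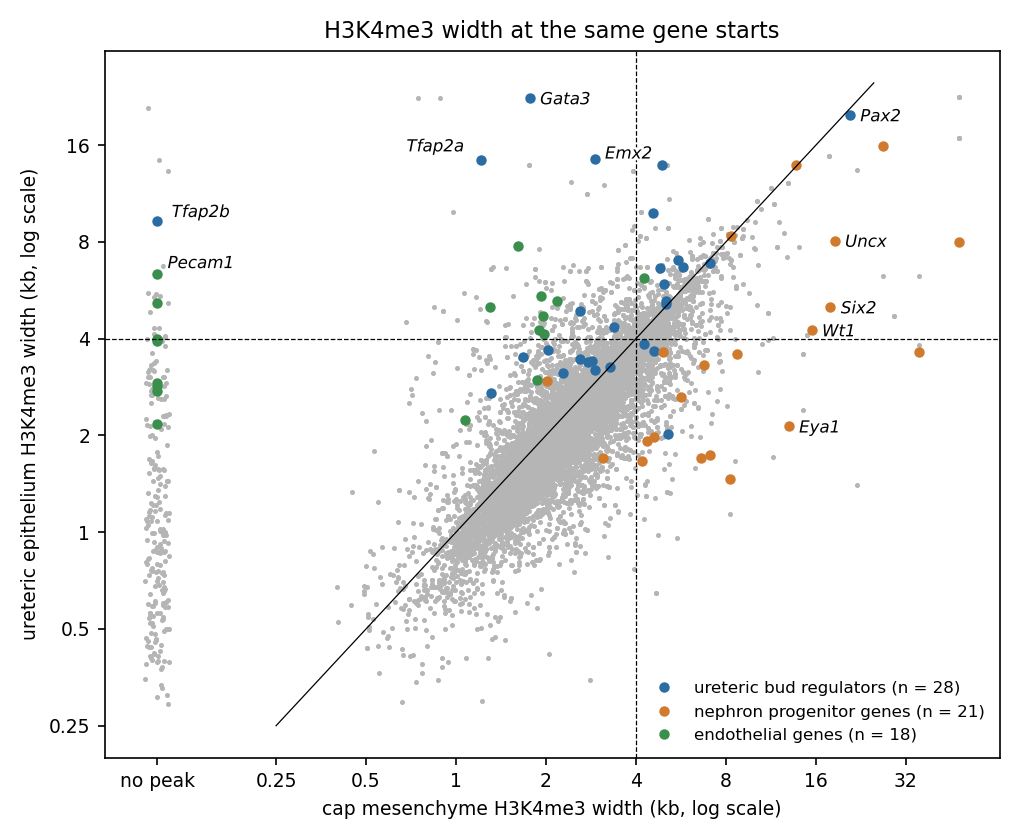
H3K4me3 width at the same gene starts in ureteric epithelium (vertical) and cap mesenchyme (horizontal), both log scales; grey points are all 15518 genes with a ureteric peak, those without a cap mesenchyme peak in the column at left. Dashed lines mark 4 kb and the solid line equal width. Ureteric bud regulators (blue, 28 with a ureteric peak) lie mostly above the line, endothelial genes (green) all above it, and nephron progenitor genes (orange) mostly below it.

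Widths went together across populations more closely than width went with RNA. Spearman's correlation was 0.840 between ureteric and cap mesenchyme widths over 15290 genes with a peak in both, and 0.644 with stem cell widths over 15147. Of broad ureteric starts, 73.7% were also broad in cap mesenchyme, where 5.65% of all genes were. In stem cells, where 17.0% of all genes were broad, 81.3% of the broad genes at 1 FPKM or more and 69.3% of the broad silent ones were broad. The corresponding shares in cap mesenchyme were 76.6% and 63.5%. The 2 kidney lists differ in length (23958 and 32992 peaks).

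Genes whose RNA differed between bud and mesenchyme were more often broad than the rest, in either direction. On the log2(FPKM + 1) scale, with at least 2 FPKM in the higher tissue, 1.57% of all genes were 4-fold or more higher in ureteric bud and 0.730% 4-fold or more lower. The cut was not centred on the median difference (bud minus mesenchyme), 0.46 over 9516 protein-coding genes at 1 FPKM or more in both. It therefore lay nearer that median on the side of higher RNA in bud. Of the 464 protein-coding genes higher in bud, 21.3% (17.7 to 25.4) were broad in ureteric epithelium and 10.3% in cap mesenchyme. Of the 207 lower in bud, 21.3% (15.9 to 27.5) were also broad in ureteric epithelium, and 39.1% in cap mesenchyme. Among 9391 genes within 4-fold, 9.36% were broad in ureteric epithelium. Ureteric H3K27me3 lay at 44.9% (38.0 to 52.0) of the genes lower in bud, 19.4% of those higher and 3.72% of those within 4-fold. Ureteric breadth was thus as frequent at genes lower in bud as at genes higher in bud, and the 2 sets differed in H3K27me3 and in cap mesenchyme width.

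Breadth found in 1 kidney population and not in the other went with RNA unevenly. The median difference, log2(FPKM + 1) in bud minus mesenchyme, was 0.46 over 9516 protein-coding genes at 1 FPKM or more in both. It was 0.75 (0.52 to 0.94) over 238 genes broad in ureteric epithelium and 2 to 4 kb in cap mesenchyme, of which 49 were 4-fold higher in bud and 3 lower. Over 55 genes broad in ureteric epithelium and under 2 kb or without a peak in cap mesenchyme it was -0.02 (-0.51 to 0.78), with 13 higher, 4 lower and 26 silent. Over 60 genes broad in cap mesenchyme and under 2 kb or without a peak in ureteric epithelium it was -0.30 (-0.74 to 0.09), with 2 higher and 14 lower.

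Expressed genes without a peak were few. At 10 FPKM or more, 76 genes (70 protein-coding) had no ureteric H3K4me3 peak at a start, which is 1.53% of the 4963 genes at that level, against 49.6% of all genes without a peak. For 50 of the 76 (65.8%) a peak lay elsewhere in the gene plus and minus 1 kb, with a median width of 2531 bp, and 26 had none. With only the outermost start of each gene the count was 264, the others having their peak at another annotated start. Ash2l, a subunit of the H3K4 methyltransferase complexes (103 FPKM, peak of 2568 bp inside the gene), the cohesin gene Rad21 (88.2 FPKM, 2542 bp) and Cyb5r3 (84.2 FPKM, 1957 bp) led the first kind. Sbk1, Slf2, Cnot7 and Dynll2, at 38.1 to 43.3 FPKM, likewise had a peak of 2405 to 4685 bp inside the gene.

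No peak lay anywhere in the gene for 22 protein-coding genes at 10 FPKM or more, 6 of them Hoxb genes. Cdkn1c, an imprinted inhibitor of the cell cycle, stood at 79.5 FPKM in bud and 173 in mesenchyme, with a peak of 3172 bp in cap mesenchyme. Rpl32l (33.3 FPKM) is a near-identical copy of a ribosomal protein gene, and how the authors' counting split reads between copies is uncertain. Krt7, a keratin of simple epithelia whose CpG-rich promoter is printed above, stood at 24.9 FPKM against none listed in mesenchyme, with 1312 bp in cap mesenchyme and 1473 bp in stem cells.

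Narrow starts, 2.39% of all genes, held 11 genes at 10 FPKM or more, all protein-coding. That was 1.495% of narrow starts, against 0.497% of starts without a peak and 16.1% of all genes, and 0.222% of the genes at that level. Aldh1a1, a retinaldehyde dehydrogenase, had 493 bp and 58.2 FPKM in bud, none listed in mesenchyme, and no peak in cap mesenchyme or stem cells. Plac8, a small cysteine-rich protein gene, had 759 bp and 25.1 FPKM against 0.154 in mesenchyme, and no peak in cap mesenchyme. Both therefore had a peak in ureteric epithelium and none in cap mesenchyme. Cetn2 (994 bp, 23.1 FPKM), Ggh (897 bp, 18.9 FPKM), Exoc4 (991 bp, 16.9 FPKM) and 1110051M20Rik (999 bp, 12 FPKM) lay nearer the limit and had peaks of 1142 to 2288 bp in cap mesenchyme. Rbbp8 (562 bp, 14.6 FPKM) and Arhgap24 (559 bp, 12.3 FPKM) had a wider peak elsewhere in the gene. The level of Magix (4862 FPKM on 905 bp) is uncertain because it rests on a transcript of 50 bp, and that of Sap18b (54.0 FPKM on 629 bp) because it is a near-identical gene copy.

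Long noncoding genes followed width at a far lower level. Of the broad ones, 63 (30.9%, 24.6 to 37.7) were at 1 FPKM or more, with a median of 0.363 FPKM, against 0.883% of the 7698 without a peak. Of the 141 broad silent ones, 110 (78.0%) shared the peak with a gene at 1 FPKM or more. A similar share, 47 (74.6%), of the 63 broad long noncoding genes with RNA shared it with another such gene. The widest were in blocks of coding neighbours: Gm26688 (1.14 FPKM) with Tfap2a, A230054N11Rik (5.12 FPKM) with Sim1, Gm11772 (0.292 FPKM) with Bahcc1, Gm31365 (0.486 FPKM) with Tnrc18, A330001L22Rik (0.769 FPKM) with Zfp503, and Mira, listed at 0, with Hoxa6 and its neighbours. Without a peak the highest were AY036118 (2547 FPKM), Gm33387 (250 FPKM), Gm34865 (187 FPKM) and the imprinted Meg3 (13.6 FPKM, 86.8 in mesenchyme). Narrow peaks stood at 2010204K13Rik (888 bp, 3.60 FPKM), Kantr (863 bp, 1.55 FPKM), BC064078 (595 bp, 1.29 FPKM) and Bvht (663 bp, 1.20 FPKM).

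The 4 kb limit divides a continuous range. Just inside it were the histone genes H2ac19 and H3c15, in 1 peak of 4000 bp and both listed at 0, Nfat5 (4001 bp, 15.2 FPKM) and Ssx2ip (4002 bp, 25.4 FPKM). Just outside were Hes1 (3999 bp, 8.82 FPKM), 2700081O15Rik (3997 bp, 12.2 FPKM), Bcl9 (3997 bp, 19.8 FPKM) and Tbkbp1 (3997 bp, 0.542 FPKM).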

How the data were processed

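The ureteric, cap mesenchyme and stem cell peak lists were used as the authors deposited them. The submitters' processing notes name Bowtie2, MACS and mm10, and the sources used here give no versions, settings, controls or pooling. Each deposited peak carries a score, the authors' caller value, used only to shorten lists in alternatives. RNA levels were the authors' deposited FPKM per transcript (TopHat, Cufflinks and Cuffdiff, per the submitters' processing notes). Transcripts were paired with RefSeq genes of GRCm38.p6 by accession or locus and summed per gene. Of 138486 transcripts, 5290 had no reference and held 93.9% of the ureteric FPKM, and these were left out, so gene FPKM are small shares of the total. Genes without a value (3754) or with a transcript marked failed (47) were dropped.

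Starts were the outermost end by strand plus every start in the RefSeq promoter table (9647 genes had several). Strand came from that table for 24269 genes and for 6540 from the order in which the RNA table lists its loci; both were the same at all 24307 genes of the annotation that had them. A peak was at a start if at least 1 bp lay within 1 kb. Width classes were cut at 1, 2, 4 and 8 kb. RNA differences used log2(FPKM + 1). Shares have exact (Clopper-Pearson) and medians order-statistic 95% intervals over genes. With 1 sample per group no test was made. Scripts (Python 3.11.15, pandas 2.3.3, numpy 2.4.6, scipy 1.17.1) were tested on simulated data.

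Genes named were the 12 widest, the 12 widest silent, the 10 widest under 0.1 FPKM, the 12 highest without a peak at a start, the 6 highest without one in the gene, the 10 highest with a narrow peak, the 12 highest broad, 4 on each side of 4 kb, 4 long noncoding genes per class, and list members that were broad with 10 FPKM or more, broad and silent, or at 10 FPKM or more with a narrow peak or none. The 23 gene lists and the classes were chosen with earlier results of these data known. The input libraries and H3K27me3 in the other populations, outside the Hoxb stretch, were not used here. Some members of the lists are counted but not reported here by name.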

Additional observations from a re-analysis of the deposited data

How the results depend on the processing

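Each of the 10 main values was recomputed under 18 alternatives, where they apply. Of 153 recomputed values, 103 stayed within the main 95% interval or, for counts, within 1.5 times. Some of the 103 could not move. The limit for broad starts does not enter the values of narrow starts or starts without a peak. RNA limits do not enter the median or Spearman's correlation. The 103 is therefore no measure of stability. Only Spearman's correlation could change sign, and it did not. Using the outermost start only and leaving out genes with transcripts marked LOWDATA were chosen after seeing the data. The share of broad starts at 1 FPKM or more (main 78.4%) was 83.3% and 73.7% with RNA limits of 0.5 and 2 FPKM, 88.1% for genes whose peak touches no other start, 75.3% without LOWDATA genes and 86.8% for protein-coding genes. That of narrow starts (12.5%) was 18.3% and 7.20% with those RNA limits, 15.55% with the outermost start, 19.5% for protein-coding genes and 43.8% with the upper 50% of peaks by score. That of starts without a peak (2.35%) was 3.92%, 1.498%, 5.09%, 3.85% and 6.66% in the same order, 1.80% without LOWDATA genes, 2.07% with the highest transcript and 2.12% with a window of 2 kb. The median of broad starts (8.72 FPKM) was 13.1 for genes alone on their peak, 7.26 without LOWDATA genes, 5.59 with the highest transcript and 11.7 for protein-coding genes. Spearman's correlation (0.403) was 0.493 for genes alone, 0.389 both with the highest transcript and with the outermost start, and 0.226 with the upper 50% of peaks. Broad silent genes (293) numbered 731 and 133 at limits of 3 and 5 kb, 83 for genes alone and 152 protein-coding. Their H3K27me3 share (29.7%) was 19.5% with 50% of the window covered, 38.3% at 5 kb, 43.4% for genes alone and 39.5% for protein-coding genes. Genes at 10 FPKM or more without a peak (76) numbered 120 and 36 with limits of 5 and 20 FPKM, 45 without LOWDATA genes, 49 with the highest transcript, 264 with the outermost start and 228 with the upper 50% of peaks. Those with a narrow peak (11) numbered 25 and 5, 7 without LOWDATA genes, 22 with the outermost start and 4 with the upper 50%. The share of broad starts also broad in cap mesenchyme (73.7%) was 83.4% and 63.8% at 3 and 5 kb, 78.3% with covered bases, 77.4% with close peaks joined and 68.2% for genes alone. RNA settings cannot move this share, and shortening the cap mesenchyme list by score left it identical, so these settings say nothing about its stability. The cause of these shifts was not tested beyond what each setting removes or adds.

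Limits are the single library per group, the step from E11.5 RNA to E15.5 chromatin, and widths that follow the authors' unstated calling settings. Depth is unknown for both kinds of data, so a missing peak or an FPKM of 0 does not show that mark or RNA is absent. A peak over several starts cannot be given to 1 gene. No paired analysis was possible because each group holds 1 sample.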

Other observations

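Broad ureteric H3K4me3 was not confined to gene starts. Of the 1080 peaks of 4 kb or wider, 61 touched no start used here, with a median width of 4630 bp. A gene body was met by 50 of them, and of the 41 with an RNA value for such a gene 21 had one at 10 FPKM or more, 18 one at 1 to 10 FPKM and 2 only genes under 1 FPKM. The widest, 13791 bp, lay in Nr2f2 (20.1 FPKM), an orphan nuclear receptor gene whose own start had a separate peak of 4690 bp and whose mesenchyme level was 235 FPKM. Others lay in Aopep (9507 bp, 8.21 FPKM), Hoxb3 (8702 bp, 27.3 FPKM) and Cyp26b1 (7395 bp, 2.87 FPKM), the last encoding an enzyme that breaks down retinoic acid. The peak of 5310 bp in the H3K27 demethylase gene Kdm6b (20.1 FPKM) lay beside its broad start peak of 7729 bp. These genes were picked from the widest of the 61 and, for Kdm6b, after its values were seen.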
